A study of Rattus norvegicus with 48 samples.

Results

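The enzymes described here carry out steps of cholesterol biosynthesis, in the order Hmgcs1, Idi1, Fdft1, Sqle, Cyp51, Ebp, Sc5d and Dhcr7. They were chosen by gene symbol, taking for each the probe set annotated with that symbol and, had there been several, the one with the highest mean over all arrays. Of the 8 enzymes, 7 had a probe set, 1 each, among the 15097 probe sets with 1 gene symbol (14324 distinct symbols) of the 27342 measured. Hmgcs1, which makes the precursor of mevalonate, was not analysed here.

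Cells build cholesterol from acetyl-CoA through mevalonate, squalene and lanosterol. The transcription factor SREBP-2, held in the endoplasmic reticulum by Insig proteins while sterols are plentiful, switches on most genes of the pathway together when sterols run low. Lipoproteins of the blood hardly enter the brain, so brain cells make their own cholesterol, much of which goes into myelin and the membranes of neurons.

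The study asked how a stress in adolescence acts on adult rats whose ancestors met the fungicide vinclozolin. Pregnant outbred Sprague-Dawley rats received intraperitoneal vinclozolin (100 mg/kg/day) or its vehicle DMSO on embryonic days 8 to 14, and males of the F3 generation, which were never dosed themselves, form the vinclozolin (Vin) and control (Con) lineages. One rat of each lineage shared a cage as a dyad, and the dyads were either left alone (NSt) or restrained for 6 hours a day over 21 days, postnatal days 23 to 43 (St). At 120 days of age 2 mm punches of the basolateral amygdala, motor cortex and the hippocampal fields CA1 and CA3 were taken, and RNA of 4 rats was pooled for each array. Crossing lineage and stress gives 4 groups an area (NSt-Con and NSt-Vin without restraint, St-Con and St-Vin with it) of 3 pools each, and the same pools of animals supplied all 4 areas. The 3 pools of a group hold different rats, so the p-values measure the spread between pools, not between single animals.

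The values are log2 signals from 1-colour whole-transcript arrays, and a difference of 1 is a doubling. Of the 48 arrays, 46 were used, because motor cortex NSt-Vin 2 and CA1 St-Con 3 equalled the mean of the other arrays of their group on 100% of probe sets (largest deviation 0.005), leaving n = 2 in those groups. The median signal of an array depended on the area, at 6.76 to 6.81 for motor cortex, 7.08 to 7.13 for amygdala, 7.11 to 7.17 for CA1 and 7.34 to 7.39 for CA3. Whether all areas went through normalization together is not given in the sources. Markers of striatal neurons, which a punch of the amygdala can include, had a list mean of 7.46 to 10.13 in the amygdala against 6.76 to 7.01 in motor cortex. The basolateral amygdala list was not highest in the amygdala (median 9.22, against 9.78 in CA3). Nor was the list of CA1 pyramidal cells highest in CA1 (median 8.235, against 8.76 in CA3). The list of CA3 pyramidal cells ran from 7.00 to 8.71 in CA1, which takes in the CA3 range of 8.32 to 8.64. On 5 arrays markers of choroid plexus, the tissue that lines the ventricles, stood over 0.6 above the mean of their area, namely motor cortex NSt-Con 1, CA1 NSt-Con 2 and 3, CA3 NSt-Con 3 and amygdala St-Vin 3.

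Promoters are shown because the enzymes moved together between pools, as described further on. The RefSeq table of assembly GRCr8 holds 5 of the 7 enzymes (Idi1, Cyp51, Ebp, Sc5d and Dhcr7), each with 250 bases before and 50 from the start of the gene. Both strands were searched for TCACNCCAC and the shorter CACNCCAC it contains, which resemble the sterol response element that SREBP binds, for CCAAT, the box of the cofactor NF-Y, and for GGGCGG, the box of Sp1. The 3 promoters below are those of Sc5d and Ebp, the enzymes that followed the rest most and least closely, and of Idi1, which differed most from the amygdala. They are written 5′ to 3′ along the gene, with every match in capitals (ATTGG is CCAAT on the opposite strand).
Sc5d, chr8:51538228-51538527, minus strand: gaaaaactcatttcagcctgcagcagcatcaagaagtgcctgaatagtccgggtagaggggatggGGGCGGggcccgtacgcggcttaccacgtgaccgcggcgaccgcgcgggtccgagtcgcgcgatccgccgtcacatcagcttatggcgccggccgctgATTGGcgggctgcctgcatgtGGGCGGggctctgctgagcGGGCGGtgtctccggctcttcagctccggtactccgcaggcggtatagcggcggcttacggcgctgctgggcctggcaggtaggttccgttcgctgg
Idi1, chr17:66547475-66547774, minus strand: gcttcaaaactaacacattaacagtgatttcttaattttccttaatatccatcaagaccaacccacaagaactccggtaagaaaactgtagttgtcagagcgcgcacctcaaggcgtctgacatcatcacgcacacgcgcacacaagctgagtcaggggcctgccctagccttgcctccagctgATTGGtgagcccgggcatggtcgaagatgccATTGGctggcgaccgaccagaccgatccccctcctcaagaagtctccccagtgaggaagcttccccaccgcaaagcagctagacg
Ebp, chrX:16971212-16971511, plus strand: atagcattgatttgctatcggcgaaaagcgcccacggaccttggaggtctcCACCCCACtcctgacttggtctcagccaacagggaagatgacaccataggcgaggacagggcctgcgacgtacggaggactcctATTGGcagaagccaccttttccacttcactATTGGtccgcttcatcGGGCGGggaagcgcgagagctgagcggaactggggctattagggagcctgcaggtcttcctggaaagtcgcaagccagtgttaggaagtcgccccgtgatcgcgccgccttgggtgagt
Sc5d has a CCAAT match 87 bases before the start and GGGCGG at 185, 66 and 47 bases. Idi1 has CCAAT matches at 66 and 35 bases and no GGGCGG. Ebp has CACNCCAC at 199 bases, CCAAT at 115 and 85 and GGGCGG at 69. Over the 5 promoters, CCAAT matched in 3 (37.494% of all 33469 promoters of the table), GGGCGG in 4 (33.063%), CACNCCAC in 1 (5.796%) and TCACNCCAC in 0 (1.117%). A match says only that the letters are there.

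The clearest differences of these enzymes were between brain areas, and the amygdala was the low end. All 7 were lower in the amygdala than in CA1 and in CA3, and 6 of the 7, all but Dhcr7, were lower there than in motor cortex, whichever of 3 scalings was used: the deposited values, arrays centred on their median, or quantile normalization. Idi1, the isomerase that readies isoprene units for joining, differed from the amygdala more than the other 6 in each of these areas under each scaling, and stood 1.97-fold higher in CA3 on the deposited values. Dhcr7, which makes cholesterol in the last step, was the 1 enzyme that was lower in motor cortex than in both hippocampal fields under every scaling.

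In the amygdala the log2 signal of Idi1 ran from 8.08 to 8.69 (median 8.36, 12 arrays), while motor cortex ran from 8.83 to 9.41 (median 9.11, 11 arrays). CA1 gave 9.07 to 9.42 (median 9.31, 11 arrays) and CA3 8.99 to 9.62 (median 9.36, 12 arrays). No amygdala array reached the lowest array of another area, and the other 3 areas overlapped widely. In the fit of all areas with the pool as a random block (limma, adjusted over all probe sets), Idi1 was 0.72 ± 0.069 (SE) higher in motor cortex than in the amygdala (adjusted p = 1.25e-11), 0.89 ± 0.069 higher in CA1 (1.40e-13) and 0.98 ± 0.067 higher in CA3 (1.20e-15). Centring and quantile normalization moved these to 1.05 and 0.82, to 0.86 and 0.71, and to 0.72 and 0.56.

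Fdft1, the squalene synthase that commits the pathway to sterols, had amygdala values of 8.82 to 9.24 and CA3 values of 9.67 to 10.01, without overlap. Its difference was 0.79 ± 0.059 (adjusted p = 1.48e-14). The motor cortex arrays ran from 9.12 to 9.64, overlapping those of the amygdala (difference 0.38 ± 0.061). With centring Fdft1 was 0.71 above the amygdala in motor cortex and 0.53 in CA3, and with quantile normalization 0.43 and 0.33. For Sqle, the squalene epoxidase that is a rate-limiting step after mevalonate, the amygdala ran from 8.69 to 9.23, motor cortex from 8.86 to 9.34 and CA3 from 9.46 to 9.78. Sqle was 0.59 ± 0.049 higher in CA3 than in the amygdala (3.05e-13), and 0.11 ± 0.051 higher in motor cortex (0.0479). With centring the values were 0.32 and 0.43 and with quantile normalization 0.13 and 0.17, so the order of CA3 and motor cortex turned with the scaling.

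The deposited call of Sqle in motor cortex had the highest adjusted p of those against the amygdala. It was lost without the pool as a block (0.11, adjusted p = 0.0542) and when 7 of the 12 pools were left out in turn (NSt-Con 1 and 2, NSt-Vin 1, St-Con 1 and 2, St-Vin 1 and 2; lowest value 0.07, adjusted p = 0.235). Amygdala and motor cortex RNA came from 1 preparation but partly from 2 scan days. In a fit of the non-stressed arrays of the shared scan day (6 of the amygdala and 4 of motor cortex), 5 of the 7 enzymes passed, as did 17479 of the 27342 probe sets. Sqle was 0.15 higher there (adjusted p = 0.0977) and Cyp51 0.18 higher (0.0530), and neither passed.

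The sterol-ring enzymes Cyp51, Ebp and Sc5d were likewise lowest in the amygdala. Cyp51, the demethylase that acts on lanosterol, exceeded its amygdala level by 0.14 ± 0.037 (SE) in motor cortex, by 0.44 ± 0.037 in CA1 and by 0.71 ± 0.036 in CA3 (adjusted p = 0.00126, 9.40e-13 and 5.26e-19). Ebp, a sterol isomerase, was 0.20 ± 0.047, 0.39 ± 0.047 and 0.67 ± 0.045 higher (0.000213, 4.27e-09 and 8.74e-16). Sc5d, the desaturase of the last steps, was 0.30 ± 0.035, 0.49 ± 0.035 and 0.63 ± 0.034 higher (1.59e-09, 1.67e-14 and 2.07e-18). For Ebp the amygdala arrays ran from 7.02 to 7.48 and the CA3 arrays from 7.87 to 8.22, and for Sc5d from 9.57 to 9.84 and from 10.20 to 10.52, again with no overlap. For Sc5d and Ebp the rise from motor cortex to CA3 belongs to the deposited values. With quantile normalization Sc5d was 0.31, 0.24 and 0.15 above the amygdala in motor cortex, CA1 and CA3, and Ebp 0.47, 0.33 and 0.36. Cyp51 still rose with quantile normalization (0.14, 0.19 and 0.23) but not with centring (0.46, 0.42 and 0.445).

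Dhcr7 had its own order of areas. Motor cortex ran from 7.64 to 7.85, the amygdala from 7.78 to 8.10, CA1 from 8.30 to 8.60 and CA3 from 8.59 to 8.94, so both hippocampal fields lay above both other areas on every array. Dhcr7 was 0.66 ± 0.036 higher in CA1 than in motor cortex (adjusted p = 5.65e-18) and 0.99 ± 0.035 higher in CA3 (5.78e-24). The differences were 0.31 and 0.40 with centring and 0.33 and 0.40 with quantile normalization. Against the amygdala it was 0.47 ± 0.035 higher in CA1 and 0.80 ± 0.034 in CA3 (4.59e-14 and 3.52e-21), while the difference between motor cortex and amygdala, -0.19 ± 0.035 as deposited (8.49e-06), was 0.13 with centring and 0.0049 with quantile normalization.

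**Figure D1:**
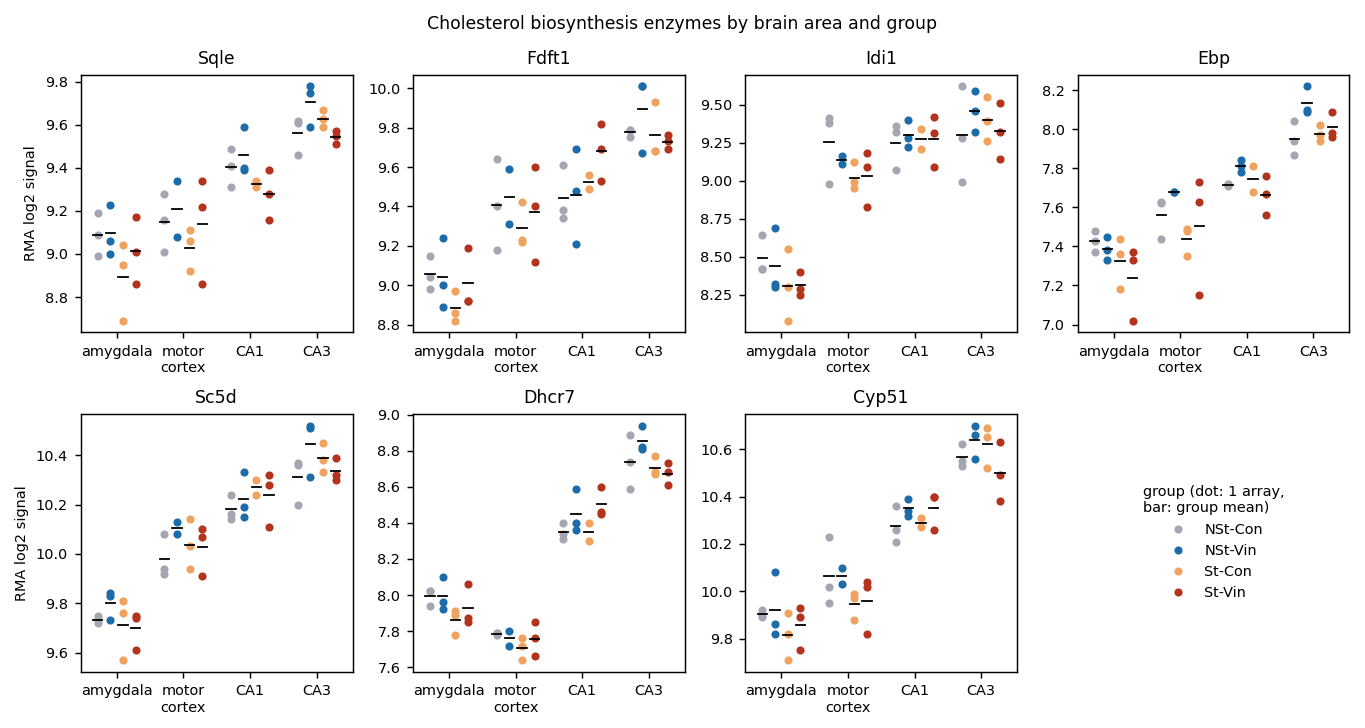
Log2 signal (y axis, a scale per panel) of the 7 enzymes by brain area (x axis) in the 46 arrays used, with 1 dot per array, colour for the group and a bar for the group mean. Amygdala means are lowest for 6 enzymes, those of motor cortex lowest for Dhcr7, and the 4 groups of an area overlap in most panels.

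Such calls were common over the whole array, and the scale of the areas bears on them. As deposited, 79.6% of probe sets passed for motor cortex against amygdala, 77% for CA1 against amygdala and 87.7% for CA3 against amygdala, and 88.6%, 95.1% and 80.2% for CA1 against motor cortex, CA3 against motor cortex and CA3 against CA1. The F test over all areas called 99.3% (7 of the 7 enzymes). The median over all probe sets was itself shifted, by -0.18, 0.13 and 0.32 against the amygdala, where the medians of the 7 enzymes were 0.20, 0.47 and 0.71. Higher under all 3 scalings were 17.1% of probe sets and 6 of the 7 enzymes in motor cortex against amygdala, 35.2% and 7 of 7 in CA1, and 34.6% and 7 of 7 in CA3.

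Among the other 3 areas most of the order was set by the scale. As deposited every enzyme was higher in CA1 and in CA3 than in motor cortex (medians 0.19 and 0.47, against 0.30 and 0.50 over all probe sets), but with centring 6 of the 7 turned lower in both comparisons. Only Dhcr7 was higher under all 3 scalings, in CA1 (24.9% of all probe sets) and in CA3 (25.5%). For CA3 against CA1, where all 3 scalings called 23.1% of probe sets higher, none of the enzymes held: 6 passed as deposited and Idi1 did not (0.10 ± 0.069, adjusted p = 0.200), Sc5d went from 0.14 to -0.09 under both other scalings, and Sqle from 0.24 to 0.0089 with centring. CA1 and CA3 RNA came from another preparation and other scan days than amygdala and motor cortex RNA. Area and preparation therefore cannot be told apart where CA1 or CA3 is compared with the amygdala or motor cortex. CA1 and CA3 shared a preparation but no scan day, so area and scan day cannot be told apart between them.

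**Figure D2:**
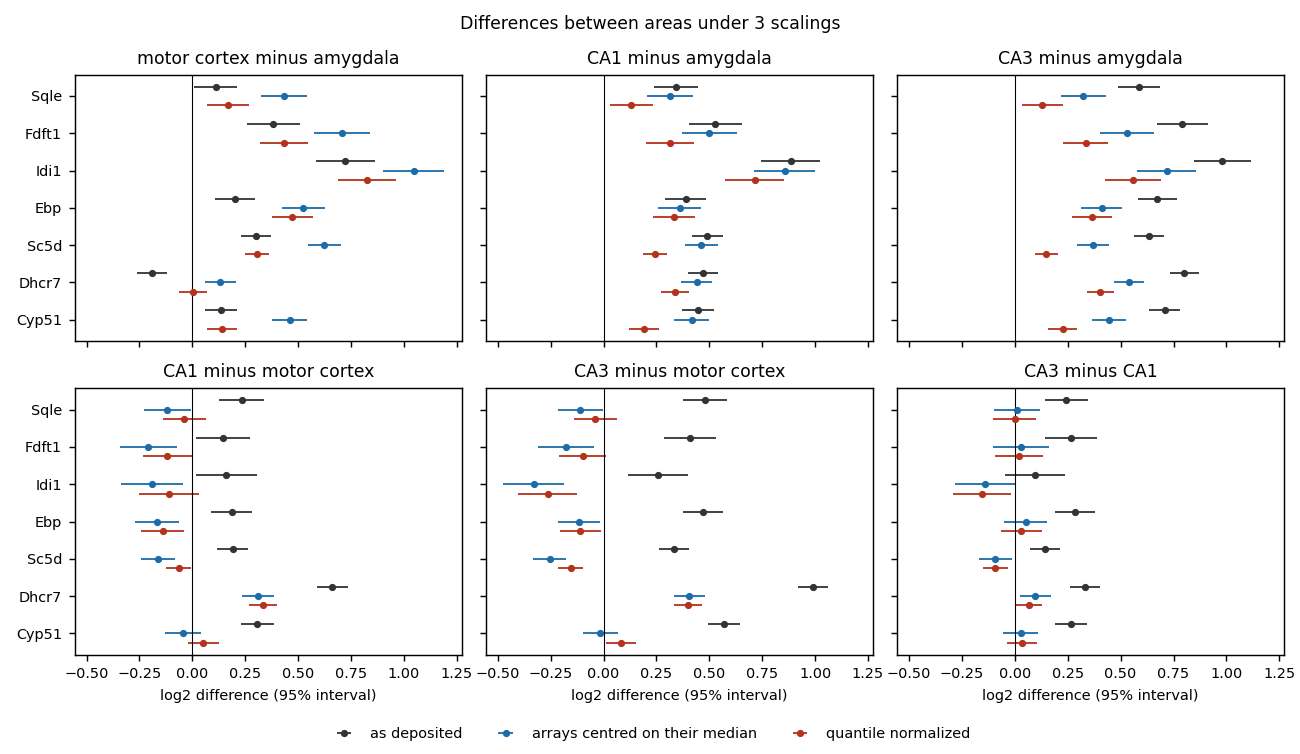
Log2 difference between 2 areas (x axis, with its 95% interval) for each enzyme (y axis), averaged over the 4 groups, in 6 panels. Black, blue and red stand for the deposited values, median centring and quantile normalization: all points against the amygdala but those of Dhcr7 in motor cortex lie right of 0 in every colour, whereas, Dhcr7 apart, the points of most enzymes spread to both sides of 0 or close to it when motor cortex, CA1 and CA3 are compared.

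Some lists of cell type markers moved with these differences and others did not, and their part was not tested. Against the amygdala, 9 of 10 neuron markers were higher in motor cortex (mean 0.38, or 0.70 with centring and 0.38 with quantile normalization), 8 of 10 in CA1 (0.29, 0.27 and 0.07) and 10 of 10 in CA3 (0.58, 0.31 and 0.15). Oligodendrocyte and myelin markers were higher too as deposited, with means of 0.20 for motor cortex (8 of 10 genes), 1.11 for CA1 (10 of 10) and 0.94 for CA3 (10 of 10). Astrocyte markers were lower in motor cortex (7 of 8, mean -0.44, or -0.12 with centring and -0.38 with quantile normalization) and higher in CA1 (6 of 8, 0.29, 0.27 and 0.09) and CA3 (8 of 8, 0.62, 0.36 and 0.22). Over all arrays of an area the mean of the neuron list ran from 10.39 to 10.71 in the amygdala, 10.77 to 11.05 in motor cortex, 10.74 to 10.93 in CA1 and 11.03 to 11.31 in CA3. In punches, more cells of a type and more RNA per cell cannot be told apart.

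The rest of the pathway gave fewer calls in motor cortex. Of 14 other enzymes listed, 9 had a probe set, and higher than the amygdala under all 3 scalings were 1 of the 9 in motor cortex (Pmvk, a mevalonate pathway kinase, 0.32), 6 in CA1 and 4 in CA3. Lss, which closes squalene into lanosterol, was 0.49 higher in CA1 and 0.82 in CA3 (adjusted p = 1.63e-15 and 1.77e-22), and like Dhcr7 it was higher in both hippocampal fields than in motor cortex under every scaling (0.66 and 0.99 as deposited). Nsdhl, which acts after Cyp51, was 0.62 and 0.74 higher. Of 6 sterol-sensing genes with a probe set, motor cortex had 2, CA1 had 4 and CA3 had 5 above the amygdala under all scalings. Both in motor cortex were Srebf2, which encodes SREBP-2, at 0.22 and Insig1 at 0.71, and in CA3 they stood at 0.69 and 0.76. Uptake, efflux, turnover and transport genes were higher in 3, 9 and 9 of 16, isoprenoid branch genes in 1, 4 and 4 of 6, and fatty acid genes in 2, 5 and 4 of 6. All these counts stand beside 17.1%, 35.2% and 34.6% of all probe sets, and those of motor cortex for the other enzymes (1 of 9), uptake (3 of 16) and isoprenoid genes (1 of 6) are near that share. Lower under all scalings were Abca1 of the uptake list in motor cortex (-0.76) and Cyp46a1 in CA1 (-0.15). The isoprenoid list had 1 such gene in each of these areas and the fatty acid list 1 in motor cortex. Over all probe sets 23.2%, 20.9% and 8.64% were lower in motor cortex, CA1 and CA3. The lists were chosen by function, and the listed genes without a matched probe set were not analysed here.

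Neither the vinclozolin lineage nor the stress changed any of the 7 enzymes past the threshold. In 7 comparisons within each of the 4 areas, 0 of 196 enzyme tests passed (limma, adjusted p of 0.05 over all probe sets, smallest 0.230), and 10 had an unadjusted p under 0.05, or 5.1% of them against 6.47% of all tests. The background was low too: 0% of probe sets passed in 25 of the 28 comparisons, and 0.636% (stress in Con, motor cortex), 0.00731% (stress averaged over lineages, motor cortex) and 0.505% (stress in Vin, CA1) in the rest. With the mean of the 4 areas in each of the 10 pools that had all of them, 0 of 49 enzyme tests passed, with 0% of probe sets called in every comparison and 2 enzyme tests at an unadjusted p under 0.05. The 95% intervals reached from -0.68 to 0.54 within areas, both bounds being those of the interaction (CA3 and CA1). For the interaction in the pool means they were narrower, from -0.32 to 0.32. In the pool means they ran from -0.13 to 0.16 for the lineage and from -0.19 to 0.12 for the stress, each averaged over the other factor.

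Directions were shared among the enzymes more often than calls. In 11 of the 28 comparisons all 7 lay on 1 side of 0, 8 times lower and 3 times higher. The enzymes moved together between pools of a group, as given further on, so 7 equal signs are not 7 separate observations. The comparisons of an area are also built from the same group means, so the 11 overlap. In the amygdala, stress in Con, stress in Vin and their average are all among the 8.

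**Figure D3:**
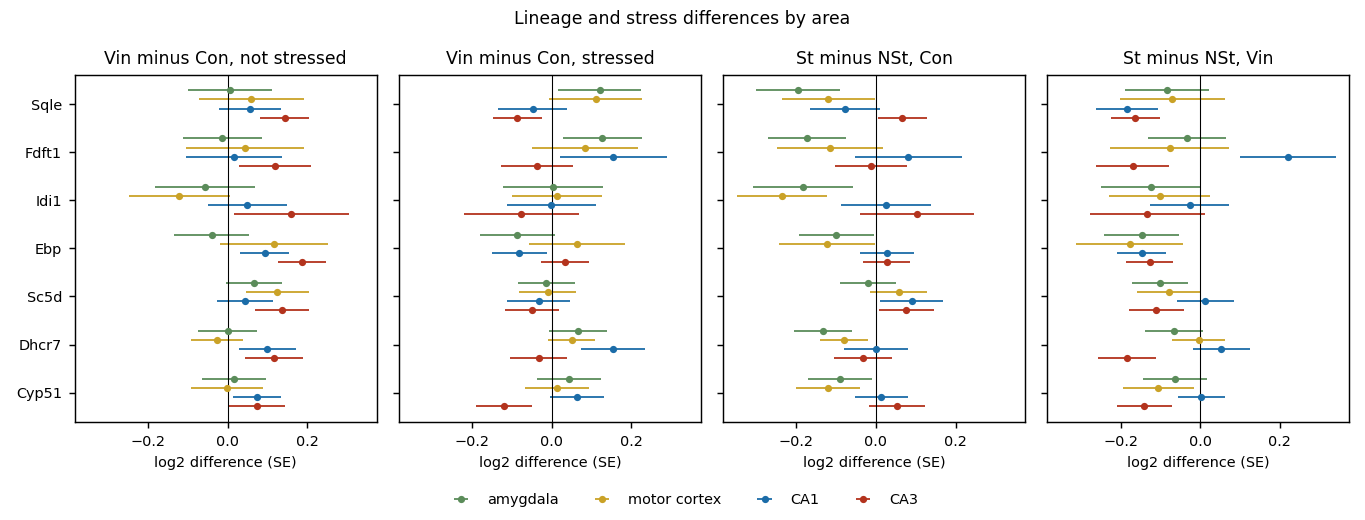
Log2 difference (x axis, with its SE) of each enzyme (y axis) for the 2 lineage comparisons and the 2 stress comparisons, coloured by area. CA3 points lie right of 0 for Vin minus Con in non-stressed rats and left of 0 for St minus NSt in the Vin lineage, and amygdala points left of 0 in both stress panels; 0 of these differences passed the threshold.

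In CA3 the median lineage difference of the enzymes was above 0 without stress and, on the deposited values, below 0 with it (0.0044 with quantile normalization). In non-stressed rats all 7 enzymes had a higher mean in the vinclozolin lineage (median 0.14, against 0.0033 over all probe sets), in stressed rats 6 of 7 a lower one (median -0.05), and the interaction was below 0 for all 7 (median -0.19). For Ebp the NSt-Con arrays read 7.94, 7.87 and 8.04 and the NSt-Vin arrays 8.09, 8.22 and 8.10. Every NSt-Vin array lay above every NSt-Con array, the difference was 0.19 ± 0.060 (SE, n = 3 and 3), and it did not pass (limma, adjusted p = 0.845, unadjusted 0.00868; 0% of probe sets called). With stress Ebp read 7.94, 8.02 and 7.97 in Con and 7.96, 7.98 and 8.09 in Vin, which overlap (0.03 ± 0.060, adjusted p = 0.996).

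Sqle had the smallest p of the 7 for the interaction. Its CA3 values were 9.61, 9.46 and 9.62 in NSt-Con, 9.75, 9.78 and 9.59 in NSt-Vin, 9.67, 9.63 and 9.59 in St-Con and 9.55, 9.51 and 9.57 in St-Vin. The 3 St-Vin arrays lay below all 3 of NSt-Vin and all 3 of St-Con. The lineage difference was 0.14 ± 0.061 without stress and -0.09 ± 0.061 with it, and the interaction of -0.23 ± 0.087 did not pass (limma, adjusted p = 0.752, unadjusted 0.0212). Within the vinclozolin lineage the stressed pools were 0.16 lower in mean (-0.16 ± 0.061, adjusted p = 0.295).

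Dhcr7 read 8.94, 8.81 and 8.82 in NSt-Vin and 8.73, 8.68 and 8.61 in St-Vin of CA3, without overlap (-0.18 ± 0.073, limma, adjusted p = 0.309). For Cyp51 St-Vin read 10.63, 10.49 and 10.38 against 10.65, 10.52 and 10.69 in St-Con, which overlap (-0.12 ± 0.070, adjusted p = 0.996). Fdft1, Idi1 and Sc5d differed by -0.17, -0.13 and -0.11 between stressed and non-stressed Vin pools, where the median over the 7 enzymes was -0.14.

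That median shrank with quantile normalization, to -0.04, and the interaction to -0.08, while centring gave -0.16 and -0.21. The lineage median in non-stressed rats ranged from 0.08 (quantile normalization, or without NSt-Con 2) to 0.21 (without NSt-Vin 3). CA3 NSt-Con 3 was one of the arrays rich in choroid plexus markers, which were lower in NSt-Vin in 11 of 11 genes (mean -0.73), and without it the median was 0.17. Neuron markers were higher in NSt-Vin in 10 of 10 genes (mean 0.10) and lower in St-Vin than in NSt-Vin in 10 of 10 (mean -0.11), with 0 called. Striatal markers were lower in NSt-Vin than in NSt-Con in 8 of 8 genes (mean -0.32) and lower in St-Vin than in NSt-Vin in 8 of 8 (mean -0.27), with 0 called. Their list mean reached 8.89 in NSt-Con, and its r with the mean deviation of the enzymes within CA3 was -0.80. The part of these lists was not tested. Sterol-sensing genes went the same way in 6 of 6 (medians 0.09 and -0.14, with 0 called), and of the 9 other enzymes 8 were higher and then 8 lower in mean (medians 0.08 and -0.08, with 0 called).

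In the amygdala all 7 enzymes had a lower mean in stressed rats of either lineage (medians -0.13 in Con and -0.08 in Vin, against -0.0067 and 0.0033 over all probe sets), with 0 called and 0% of probe sets called. For Sqle the Con arrays went from 8.99, 9.09 and 9.19 without stress to 8.69, 8.95 and 9.04 with it, and the Vin arrays from 9.06, 9.23 and 9.00 to 8.86, 9.01 and 9.17. The ranges overlapped in both lineages, and averaged over them the difference was -0.14 ± 0.074 (limma, adjusted p = 0.996). Idi1 was -0.15 ± 0.089 and Ebp -0.12 ± 0.066 on the same measure. Striatal markers were higher in the stressed amygdala in 8 of 8 genes (mean 0.65, with 0 called) and markers of the basolateral amygdala lower in 5 of 5 (mean -0.34, with 0 called). The median of the neuron list went from 10.625 to 10.409 with stress in Con and from 10.59 to 10.492 in Vin, with overlapping ranges. The part of these lists was not tested.

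Motor cortex gave a like picture on its deposited values, which depended on the scan day. All 7 enzymes were lower in mean with stress averaged over lineages (median -0.10), and 6 of 7 in Con (median -0.12), led by Idi1 at -0.24 ± 0.11 (limma, adjusted p = 0.293). The Idi1 arrays read 9.41, 9.38 and 8.98 in NSt-Con and 8.99, 9.12 and 8.95 in St-Con, with NSt-Con 3 inside the stressed range. All stressed motor cortex arrays were scanned on another day than the NSt-Con arrays, and with scan day as a block, which leaves NSt-Vin 1 and NSt-Vin 3 to link the days, the medians were 0.02 and 0. Choroid plexus markers were lower with stress in 11 of 11 genes (mean -1.07, with 0 called), NSt-Con 1 being rich in them, and without it the medians were -0.06 and -0.06.

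In CA1 all 7 enzymes had a higher mean in the vinclozolin lineage without stress (median 0.06, against 0.013 over all probe sets), with 0 called. Without the choroid-rich arrays that median was -0.01. Averaged over stress all 7 were higher in Vin as well (median 0.02, against 0.0067), with 0 called. In the stress comparisons of CA1 the enzymes split. For stress in the vinclozolin lineage Sqle was lower in mean (-0.18 ± 0.078, limma, adjusted p = 0.240) and Ebp too (-0.15 ± 0.061, 0.230), while Fdft1 was higher (0.22 ± 0.12, 0.339), and the other 4 lay between -0.03 and 0.05. Ebp read 7.81, 7.84 and 7.78 in NSt-Vin and 7.67, 7.76 and 7.56 in St-Vin, without overlap, and Fdft1 read 9.69, 9.48 and 9.21 against 9.82, 9.53 and 9.69, with overlap. Of the arrays used, the St-Vin arrays of CA1 were the only ones scanned on their day (it also held St-Con 3, left out as a mean of others), so the day of the scan cannot be told apart from lineage or stress in this group. Markers of CA3 pyramidal cells were lower in the same comparison in 4 of 5 genes (mean -0.86) and oligodendrocyte markers higher in 10 of 10 (mean 0.43), with 0 called, and their part was not tested.

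Whether an effect differed between areas was tested directly. The F test of the lineage difference over the 4 areas called 0 of 7 enzymes (limma, smallest adjusted p = 0.9999) and 0% of probe sets, with 1164 probe sets at an unadjusted p under 0.05. For the stress difference it called 0 of 7 enzymes (smallest 0.426) against 0.907% of probe sets.

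The dyads allow the 2 lineages to be set side by side, since the Vin and the Con pool of 1 number hold cage mates. Of 22 such pairs over areas and stress conditions, Vin was above Con in 17 for Dhcr7 (mean 0.05 ± 0.088, SD), in 14 for Ebp, in 13 for Cyp51 and Sqle, in 12 for Fdft1 and in 11 for Idi1 and Sc5d. The 22 pairs come from 6 sets of dyads, so they are not independent, and the lineage difference of Dhcr7 in the pool means was 0.05 ± 0.028 (SE; limma, adjusted p = 0.9997). In CA3 Vin was above Con in 17 of 21 enzyme pairs without stress and in 6 of 21 with it. These 21 are 7 enzymes in 3 dyad sets, and the enzymes moved together, so they are not 21 separate observations. Without stress the lower values were all of dyad set 3 (Sqle -0.03, Fdft1 -0.12, Idi1 -0.3 and Sc5d -0.06). The dyad set as a replicate block changed no enzyme call: 0 of 196 tests passed with it, although in CA1 it called 347 probe sets for the lineage in stressed rats, 135 for the interaction and 112 for the lineage averaged over stress, each 0 without it.

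The enzymes varied together between pools of the same group. Each array's deviation from the mean of its area and group was taken for each enzyme, over the 46 arrays, and correlated with the mean deviation of the other 6. Pearson's r was 0.83 for Sc5d and Sqle, 0.81 for Fdft1, 0.71 for Idi1, 0.65 for Cyp51, 0.63 for Dhcr7 and 0.23 for Ebp (Spearman's rho 0.85, 0.81, 0.83, 0.76, 0.65, 0.66 and 0.12). Ebp stood apart: the median r over its 6 pairs was 0.22, against 0.66 over the 15 pairs without it, and with the mean of the others it gave 0.82 in motor cortex but -0.43 in the amygdala and -0.36 in CA1. The mean r over all pairs of probe sets on the array was 0.0138. Arrays of 1 area share scan days and pools recur across areas, so these correlations are given as descriptions.

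Within areas the median r over the 21 pairs of enzymes was highest in motor cortex (0.74), followed by the amygdala (0.64), CA3 (0.54) and CA1 (0.52). The lowest array was motor cortex St-Vin 3, where the enzymes lay 0.21 below their group on average, followed by motor cortex NSt-Con 3 at 0.13 below. Without these arrays r over all areas was 0.83 for Sc5d and Fdft1, 0.78 for Sqle, 0.70 for Idi1, 0.63 for Dhcr7, 0.61 for Cyp51 and 0.09 for Ebp. The values within motor cortex were not taken without them.

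**Figure D4:**
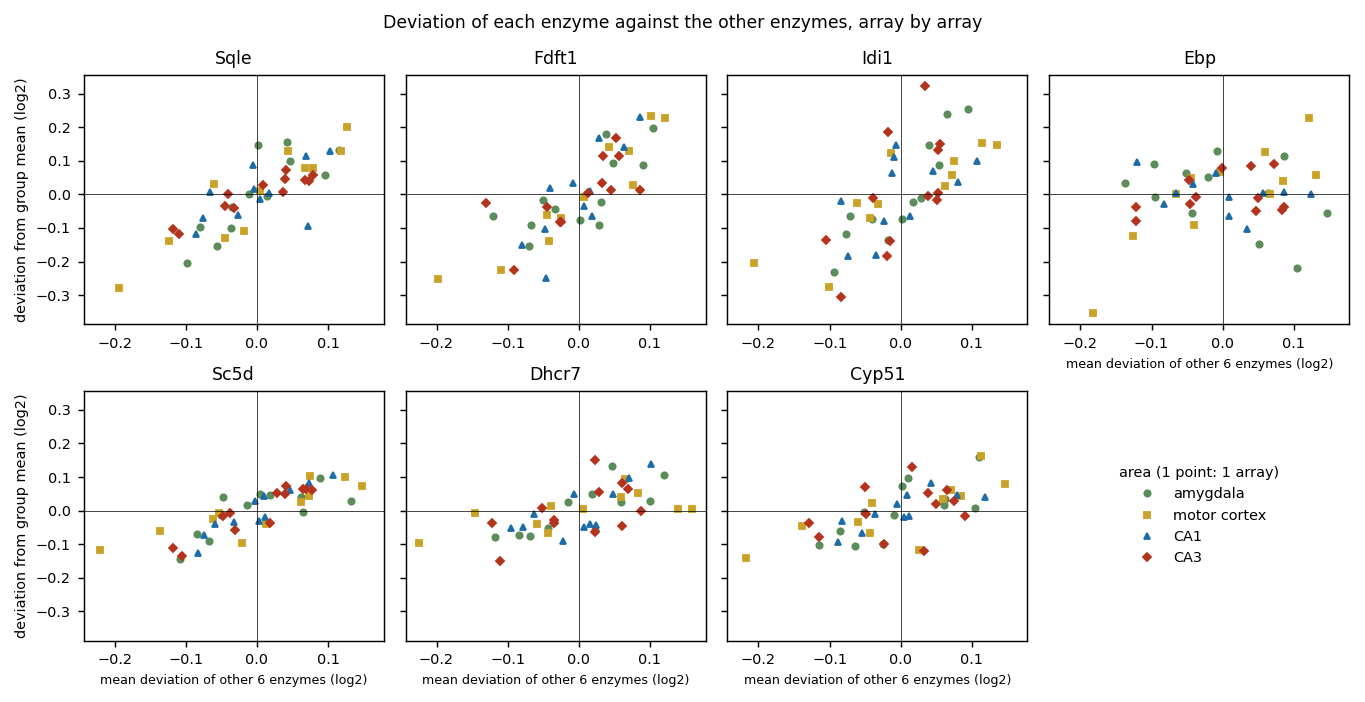
Deviation of each enzyme from its area and group mean (y axis, log2) against the mean deviation of the other 6 enzymes (x axis, log2), with 1 point per array and a symbol per area. Points rise from lower left to upper right in every panel but that of Ebp, and the array farthest to the left is motor cortex St-Vin 3.

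Other genes followed the same axis. By r with the mean deviation of the 7 enzymes over the 46 arrays, the 10 most alike genes outside the set were Msmo1 (0.87), Idh1 (0.87), Insig1 (0.85), Chp1 (0.84), Acot7 (0.84), Ppp5c (0.84), Jak1 (0.84), Ap2s1 (0.83), Apbb1 (0.82) and Tubb3 (0.82). Msmo1 removes methyl groups from sterols after Cyp51, Idh1 is the cytosolic isocitrate dehydrogenase that yields NADPH, and Tubb3 is a tubulin of neurons. Insig1 had 2 probe sets, and the brighter gave 0.61. Of the pathway genes listed, Nsdhl gave 0.81, Acat2 0.76, Srebf2 0.72, Acly, which supplies cytosolic acetyl-CoA, 0.72, Hsd17b7 0.54, Pmvk 0.49, Lss 0.46, Tm7sf2 0.42, Mvd 0.36 and Lbr -0.12. The other sterol-sensing genes gave less, at 0.33 for Scap, 0.27 for Mbtps2, 0.13 for Insig2 and -0.02 for Mbtps1. Fatty acid genes other than Acly ran from 0.24 (Scd) to 0.54 (Elovl6). Ch25h, whose product 25-hydroxycholesterol restrains SREBP, was lowest of the listed genes at -0.48.

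The range over the array was wide: the central 95% of r over all probe sets lay between -0.51 and 0.58. Over all areas some cell type lists moved along the same axis, with r of 0.58 for the neuron list, 0.25 for oligodendrocyte, 0.14 for astrocyte, -0.54 for endothelium and -0.36 for leptomeninges. The basolateral amygdala list gave 0.58 as well, choroid plexus 0.37, microglia 0.28 and the striatal list -0.28. In motor cortex alone (11 arrays) r was 0.96 for the basolateral amygdala list, 0.92 for neuron, 0.89 for striatal, 0.83 for oligodendrocyte and -0.93 for endothelium. Leptomeninges gave -0.63 there, and cortical layers (2 of 6 genes with a probe set) -0.62, but 0.85 in the amygdala. Endothelium gave only -0.05, -0.07 and -0.17 in the amygdala, CA1 and CA3. In the same order neuron gave 0.37, 0.66 and 0.43, and the basolateral amygdala list 0.44, -0.08 and 0.50. Without the farthest 2 arrays the neuron and endothelium lists gave 0.51 and -0.37 over all areas. Both of these arrays are of motor cortex, and the values of motor cortex alone were not taken without them. How much of the joint movement of the enzymes goes with these lists was not tested.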

How the data were processed

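RNA pools from 4 brain areas were hybridised to 1-colour whole-transcript arrays, and the deposited table holds log2 signals per probe set. Partek and RMA made them, per the submitters' processing notes (RMA being background correction, quantile normalization and probe set summary), with no version. A gene was named from the platform annotation (15097 probe sets with 1 symbol, 323 with several, 11922 with none). Each area was fitted on all 27342 probe sets with limma 3.58.1 in R 4.3.3 (lmFit and eBayes, 2-sided, Benjamini-Hochberg, threshold 0.05) for 4 groups and 7 contrasts; pool means over areas likewise. Areas were compared in 1 fit with the pool as a random block (statmod 1.5.0, correlation 0.0487). The fits were tested on simulated data. Dyad sets pair the lineages by design, and deviations of same-numbered pools correlated above 0.1 in every pair of amygdala (6) and CA1 (5), in 3 of 5 of motor cortex and in 5 of 6 of CA3. Alternatives covered scaling, blocks, scan day, a filter on dim probe sets (30th percentile), variance priors, choroid-rich arrays and each replicate left out. Named genes were the enzymes, listed genes past the threshold (at most 6 a list by the smallest p) and the 10 most alike. The enzymes, lists and tests were chosen with earlier results of these data known. Arrays have no read depth; their number limits the precision.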

Additional observations from a re-analysis of the deposited data

How the results depend on the processing

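Within areas and in the pool means, 0 enzymes passed under any alternative run (712 comparisons by setting), so no alternative changed a call there. With the replicate block (dyad sets, a paired analysis of lineage) the 196 tests within areas gave 0 enzyme calls as well. Between areas the scaling decided the direction in several places, because centring and quantile normalization remove the shift of the area medians. The count of enzymes called fell from 7 to 2 for CA1 against motor cortex with quantile normalization, and from 6 to 2 for CA3 against CA1 with either. With median centring the sign turned for Dhcr7 in motor cortex against amygdala (0.13); for CA1 against motor cortex in Sqle (-0.12), Fdft1 (-0.21), Idi1 (-0.19), Ebp (-0.17), Sc5d (-0.16) and Cyp51 (-0.044); for CA3 against motor cortex in Sqle (-0.11), Fdft1 (-0.18), Idi1 (-0.33), Ebp (-0.12), Sc5d (-0.25) and Cyp51 (-0.016); and for CA3 against CA1 in Idi1 (-0.14) and Sc5d (-0.093). With quantile normalization it turned for Dhcr7 in motor cortex against amygdala (0.0049), for CA1 against motor cortex in Sqle (-0.038), Fdft1 (-0.12), Idi1 (-0.11), Ebp (-0.14) and Sc5d (-0.064), for CA3 against motor cortex in Sqle (-0.039), Fdft1 (-0.10), Idi1 (-0.27), Ebp (-0.11) and Sc5d (-0.16), and for CA3 against CA1 in Sqle (-0.0013), Idi1 (-0.15) and Sc5d (-0.093). Leaving out pools ended 18 single area calls, all of Sqle in motor cortex against amygdala or of Fdft1 and Idi1 in CA1 against motor cortex (the latter with values down to 0.11 and adjusted p up to 0.128). The pool-mean fit without choroid-rich arrays was not run, since no NSt-Con pool then keeps all 4 areas, and neither was the mean of several probe sets, since each enzyme has 1.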
